A study of Mus musculus with 72 samples.

Results

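The 4 genes described here are Atm, Trp53, Cdkn1a and Fas, chosen by their symbols from the 1224 genes measured on 2 targeted amplicon panels. All 4 passed the filter on low counts, as did 1038 genes in all. They were followed across 36 tumours of female BALB/c mice aged 6 to 12 weeks, 9 mice in each of 4 groups. Every tumour was started with 4T1 cells on day -6, was treated on day 0 and was taken on day 6. 4T1 is 1 mouse mammary carcinoma line of BALB/c origin, and the hosts carry an immune system. The control group received 400 µg of an isotype antibody, and the radiation group (RT) received radiation and the same 400 µg of isotype antibody. The BA group received 492 µg of bintrafusp alfa (BA, coded M7824 in the labels), and the BA+RT group received 492 µg of BA and radiation. BA is an antibody against PD-L1 fused to the outer part of a TGF-β receptor, which captures TGF-β. The sources used here do not give the dose of radiation. The tissue is labelled as orthotopic tumour, although per the design text the cells were put into the thigh. The comparisons ask what each treatment did alone, what either added to the other, and whether their effects were additive on the log scale.

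Atm encodes the kinase that is activated at DNA double-strand breaks and phosphorylates p53 and checkpoint proteins. Trp53 encodes p53, a transcription factor held at low level by degradation and stabilised after DNA damage, mainly through changes to the protein. Cdkn1a encodes p21, an inhibitor of cyclin-dependent kinases that halts the cell cycle, and is a direct target of p53. Fas encodes a death receptor of the cell surface that starts caspase-8 signalling when bound by Fas ligand, and is also a target of p53. Both targets have other inducers, among them TGF-β for Cdkn1a and inflammatory cytokines for Fas. 4T1 cells are described in the field as lacking functional p53, and tumours also hold host cells with an intact gene. Transcript counts of a whole tumour show neither the p53 protein nor the cells that hold the RNA.

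Each value below rests on 1 short amplicon in coding sequence, so the 4 amplicons are shown first because they are what was counted. Positions are on GRCm38, and the sequences are from the GENCODE M21 transcripts, in the 5′ to 3′ direction of the gene. The Atm amplicon covers 94 bases at chr9:53451583-53451676 on the minus strand, in exon 56 of 64. Atm is on both panels, and which panel the printed Atm amplicon belongs to was not checked. The Trp53 amplicon covers 97 bases at chr11:69589141-69589237 on the plus strand, in exon 7 of 11. The Cdkn1a amplicon covers 106 bases at chr17:29098453-29098558 on the plus strand, in exon 2 of 3. The Fas amplicon covers 94 bases at chr19:34307133-34307226 on the plus strand, in exon 2 of 9. No base is capitalised in these 4 sequences.
Atm amplicon: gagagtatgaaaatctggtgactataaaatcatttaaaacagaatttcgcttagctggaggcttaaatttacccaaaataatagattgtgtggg
Trp53 amplicon: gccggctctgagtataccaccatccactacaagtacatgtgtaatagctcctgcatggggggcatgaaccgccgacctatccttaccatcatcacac
Cdkn1a amplicon: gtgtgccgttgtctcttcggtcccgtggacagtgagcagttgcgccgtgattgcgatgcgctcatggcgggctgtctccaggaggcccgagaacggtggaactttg
Fas amplicon: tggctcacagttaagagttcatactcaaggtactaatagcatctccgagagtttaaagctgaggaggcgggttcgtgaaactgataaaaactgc
The share of G and C was 33% in the Atm amplicon, 52.6% in Trp53, 62.3% in Cdkn1a and 43.6% in Fas. The Trp53, Cdkn1a and Fas amplicons lay in every annotated coding transcript of their gene, 4 of 4, 4 of 4 and 3 of 3. The Atm amplicon lay in 2 of 4, so coding transcripts that do not hold it were not counted. Because 1 amplicon amplifies better than another, levels are compared between groups and not between genes.

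The 250 bases before the annotated starts were searched on both strands for the p53 half-site, the 10-base unit of the p53 binding site. The 2 windows with a match are printed for the match alone. Atm and Fas, which had no match in these windows, were also called higher after radiation. Whether a match bears on the calls was not tested. Sequences are from RefSeq on GRCm38.p6 and capitals mark the matches. The Trp53 window is chr11:69580109-69580358 on the plus strand, with 1 match beginning 75 bases before the start. The window of the upstream Cdkn1a start is chr17:29090729-29090978 on the plus strand, with matches beginning 73 and 51 bases before the start.
Trp53 promoter window: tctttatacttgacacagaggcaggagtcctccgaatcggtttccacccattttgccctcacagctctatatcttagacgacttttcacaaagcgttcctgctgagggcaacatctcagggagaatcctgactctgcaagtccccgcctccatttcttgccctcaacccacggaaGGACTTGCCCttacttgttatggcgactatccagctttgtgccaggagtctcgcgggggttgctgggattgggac
Cdkn1a promoter window: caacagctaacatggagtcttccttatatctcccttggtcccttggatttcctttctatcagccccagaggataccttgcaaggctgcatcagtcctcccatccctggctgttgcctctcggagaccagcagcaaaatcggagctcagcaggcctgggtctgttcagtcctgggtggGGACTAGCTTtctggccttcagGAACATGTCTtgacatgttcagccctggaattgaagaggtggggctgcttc
Matches were present in 7.13% of 32851 windows of this length. The windows of Atm, of Fas and of the second Cdkn1a start held 0. A match in these letters is a description of the sequence, and binding was not measured.

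After radiation all 4 genes were higher than in control tumours 6 days after treatment. The edgeR test called 4 of 4 higher at an adjusted p under 0.05, in a comparison where 20.5% of the 1038 tested genes were called higher and 41.6% were called in either direction. The 4 genes were chosen with earlier results of these data known, so the shares here and below are a description and not a test of the set. Cdkn1a had the largest log2 fold change of the 4, at 1.39, followed by Fas at 0.75, Trp53 at 0.43 and Atm at 0.26. The median log2 fold change of all tested genes was -0.01. With BA alone 0 of 4 were called, against 27% of tested genes called in either direction. With BA+RT, Atm, Trp53 and Cdkn1a were called higher than in control tumours and Fas was not, 3 of 4 against 23.4% called higher and 47.6% in either direction. The same 3 were called higher in BA+RT than in BA tumours, where 27.1% were called higher and 53.5% in either direction. Between BA+RT and RT tumours 0 of 4 were called, where 10.8% were called in either direction, and the interaction of BA and radiation called 0 of 4 against 8.29%. At an unadjusted p under 0.05, edgeR passed 0 of 4 for BA versus control, 2 of 4 (Atm and Fas) for BA+RT versus RT and 1 of 4 (Fas) for the interaction, where 37.8%, 24.8% and 22.8% of tested genes passed. For the same 3 comparisons, the DESeq2 Wald test called 0, 1 (Atm) and 0 of 4, where it called 29.8%, 14.1% and 10.7% of tested genes. Comparisons that share a group, such as RT and BA+RT against the same 9 control tumours, are not independent of each other.

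**Figure D1:**
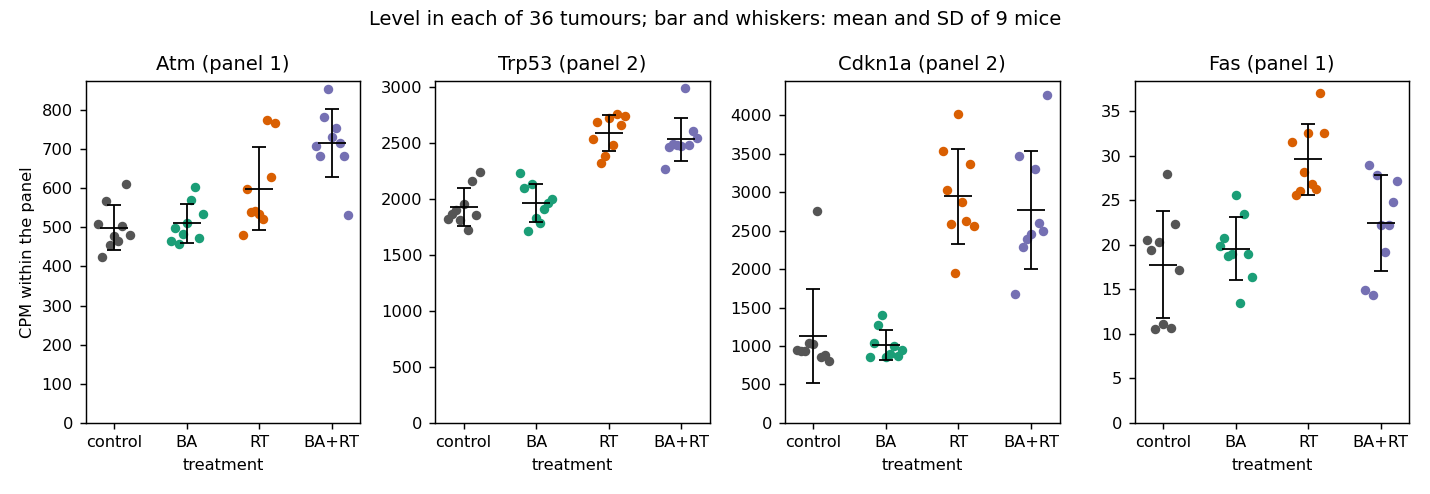
Level of each gene in CPM (vertical axis from 0) in each of 36 tumours by treatment (horizontal axis), with 1 panel per gene; the bar and whiskers are the mean and SD of 9 mice. Trp53 in irradiated tumours sat at or above 2267 CPM with no control or BA tumour as high, and 1 control tumour, at 2761 CPM of Cdkn1a, lay among the irradiated tumours.

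Levels are given in CPM, counts scaled to the normalized library size of the panel. Atm, the kinase at the head of the pathway, had a median of 481 CPM in control tumours, with a lowest value of 424 and a highest of 611. BA tumours spanned 458 to 603 with a median of 499 CPM. RT tumours spanned 481 to 775 with a median of 542.5 CPM, and 3 of 9 lay above every control tumour. BA+RT tumours spanned 533 to 853 with a median of 716 CPM, and 8 of 9 lay above every control tumour. The means were 499 ± 57.6 CPM in control, 511 ± 49.8 in BA, 599 ± 107 in RT and 716 ± 87.2 in BA+RT tumours (SD, n = 9 each). The RT group thus held 2 tumours at 768 and 775 CPM, while its other 7 lay at or below 629. Neighbouring groups overlapped in this order of levels, and control and BA tumours covered almost the same range.

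The log2 fold change of Atm was 0.26 (SE 0.09) in RT versus control tumours, with an adjusted p of 0.0151. That call was lost without RT mouse 27, where the value was 0.18 and the adjusted p 0.0798, and it held in the other 35 of 36 fits that each left out 1 mouse. In a fit of RT and control tumours alone the adjusted p was 0.0638. With BA+RT the log2 fold change was 0.52 (SE 0.09, adjusted p 1.02e-05) against control and 0.49 (SE 0.09, adjusted p 2.26e-05) against BA tumours. Against RT tumours it was 0.26 (SE 0.09, 95% interval 0.08 to 0.44), with an adjusted p of 0.0527 that missed the threshold. With the reference genes it was 0.17 (adjusted p 0.271), and the DESeq2 Wald test called it at 0.27 (adjusted p 0.0302). It was called in 14 of 36 fits that each left out 1 mouse, with adjusted p values from 0.0108 without RT mouse 27 to 0.109 without BA+RT mouse 40. BA alone gave 0.03 (SE 0.09, adjusted p 0.818), and the interaction was 0.22 (SE 0.12, adjusted p 0.289). Whether BA changed Atm differently with and without radiation was therefore not shown.

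Atm was the only one of the 4 genes on both panels, so its panel 2 count gives a repeat measurement in the same tumours. Whether the 2 panels use the same Atm amplicon was not checked. The correlation of its log2 CPM between panels over 36 mice was 0.931, and 0.842 after the group means were subtracted. On panel 2 the log2 fold change was 0.30 (SE 0.09) for RT and 0.57 (SE 0.09) for BA+RT against control, and 0.27 (SE 0.08) for BA+RT against RT. The tumour highest in Atm was the same mouse on both panels in all 4 groups (control mouse 8, BA mouse 16, RT mouse 25 and BA+RT mouse 40).

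Trp53 had the smallest spread within groups, with a coefficient of variation of 6.29% to 8.86%. Control tumours spanned 1720 to 2242 CPM with a median of 1864, and BA tumours 1711 to 2232 with a median of 1968. RT tumours spanned 2324 to 2764 with a median of 2667 CPM. BA+RT tumours spanned 2267 to 2992 with a median of 2484 CPM. All 18 irradiated tumours lay above all 18 unirradiated tumours. The groups did not overlap for RT versus control, BA+RT versus control or BA+RT versus BA, which held for 7.61%, 7.23% and 11.7% of tested genes. For BA versus control and BA+RT versus RT the groups overlapped for all 4 genes, while 2.79% and 0.771% of tested genes did not overlap there.

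The means of Trp53 were 1927 ± 171 CPM in control, 1963 ± 171 in BA, 2591 ± 163 in RT and 2534 ± 195 in BA+RT tumours (SD, n = 9 each). RT versus control gave a log2 fold change of 0.43 (SE 0.05, adjusted p 1.1e-07), or 1.34-fold with a 95% interval of 1.24 to 1.45. BA+RT gave 0.39 (SE 0.05, adjusted p 3.67e-07) against control and 0.37 (SE 0.05, adjusted p 1.28e-06) against BA tumours. By size this change ranked 270 of the 1038 genes in RT versus control, and by p it ranked 30. Between BA+RT and RT tumours Trp53 differed by -0.03 (95% interval -0.14 to 0.08, adjusted p 0.770). BA versus control gave 0.03 (95% interval -0.08 to 0.14, adjusted p 0.759), and the interaction was -0.06 (SE 0.08, adjusted p 0.692). The calls held in all 36 fits that each left out 1 mouse.

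Cdkn1a, the p53 target that encodes p21, spanned 806 to 2761 CPM in control tumours with a median of 937. Control mouse 6 alone reached 2761, and the other 8 control tumours lay between 806 and 1033 CPM. BA tumours spanned 859 to 1409 with a median of 945 CPM. RT tumours spanned 1946 to 4015 with a median of 2868 CPM, and BA+RT tumours 1673 to 4260 with a median of 2498 CPM. All irradiated tumours lay above all BA tumours and above 8 of 9 control tumours. Overlap with the control group came through mouse 6, which exceeded 4 of 9 RT and 6 of 9 BA+RT tumours. BA+RT and BA tumours did not overlap.

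The mean of Cdkn1a was 1130 ± 616 CPM in control, 1016 ± 197 in BA, 2949 ± 618 in RT and 2771 ± 772 in BA+RT tumours (SD, n = 9 each). RT versus control gave a log2 fold change of 1.39 (SE 0.19, adjusted p 3.5e-07), which ranked 36 of 1038 genes by size. Without control mouse 6 it was 1.67 (adjusted p 2.39e-11). BA+RT gave 1.31 (SE 0.19, adjusted p 9.73e-07) against control, or 1.56 without mouse 6, and 1.45 (SE 0.19, adjusted p 1.76e-07) against BA tumours. Between BA+RT and RT tumours the difference was -0.09 (95% interval -0.46 to 0.29, adjusted p 0.828). BA versus control gave -0.15 (SE 0.19, adjusted p 0.618), which became 0.12 without control mouse 6. The interaction was 0.06 (95% interval -0.48 to 0.60, adjusted p 0.924), and -0.23 without mouse 6.

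Fas, the death receptor, was counted at the lowest depth of the 4, with 14 to 84 counts per library. Control tumours spanned 10.5 to 28.0 CPM with a median of 19.4, and 3 of them lay between 10.5 and 11.1. BA tumours spanned 13.5 to 25.7 with a median of 19 CPM. RT tumours spanned 25.6 to 37.1 with a median of 28.2 CPM, and BA+RT tumours 14.4 to 29.0 with a median of 22.3 CPM. Every RT tumour lay above 8 of 9 control tumours, and the overlap came through control mouse 6 at 28.0 CPM. BA+RT tumours overlapped both the control and the RT group, and 3 of 9 control tumours lay below every BA+RT tumour.

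The mean of Fas was 17.8 ± 6.01 CPM in control, 19.6 ± 3.57 in BA, 29.6 ± 3.98 in RT and 22.4 ± 5.39 in BA+RT tumours (SD, n = 9 each). RT versus control gave a log2 fold change of 0.75 (SE 0.17, adjusted p 0.000511), or 1.68-fold with a 95% interval of 1.32 to 2.13, and it was called in all 36 fits that each left out 1 mouse. BA+RT versus control gave 0.34 (SE 0.17, 95% interval 0.00 to 0.69, adjusted p 0.0901), which was not called. Leaving out control mouse 6 gave 0.42 with an adjusted p of 0.0349, and factors from the 9 reference genes on each panel gave 0.48 with an adjusted p of 0.0408. BA+RT minus RT was -0.40 (95% interval -0.73 to -0.07, adjusted p 0.110), with 6 of 9 BA+RT tumours below every RT tumour. The interaction was -0.55 (95% interval -1.03 to -0.07, adjusted p 0.155), so a dependence of the change with BA on radiation was not shown. BA versus control gave 0.15 (SE 0.17, adjusted p 0.578), and BA+RT versus BA gave 0.20 (SE 0.17, adjusted p 0.334). Counting error alone gives a coefficient of variation of 13.5% to 19.2% at the median counts of the 4 groups, beside a measured 13.4% to 33.8%.

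**Figure D2:**
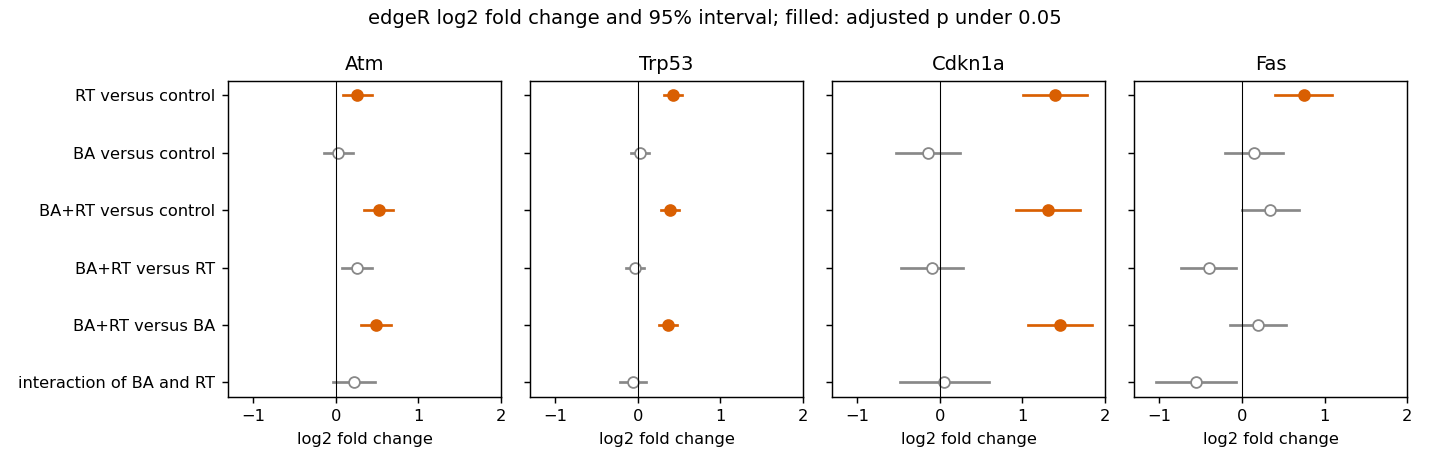
Log2 fold change (horizontal axis) of each gene in the 5 pairwise comparisons and the interaction (vertical axis); points are edgeR estimates, lines are 95% intervals and filled points have an adjusted p under 0.05. Cdkn1a lies at 1.39, 1.31 and 1.45 in the 3 comparisons with and without radiation, and Fas is filled in RT versus control only, at 0.75.

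Control mouse 6 was high in Cdkn1a and Fas and not in Atm or Trp53, and it stood at the edge of its group in many other genes. Over the 1038 tested genes it was the highest of the 9 control tumours in 253 and the lowest in 320, while the other 8 were highest in 58 to 190 and lowest in 34 to 147 each. Its Cdkn1a was 2761 CPM beside 926 ± 78.6 CPM (SD, n = 8) in the other control tumours, and its Fas was 28.0 beside 16.5 ± 4.96 CPM. Its Trp53, at 1720 CPM, was the lowest of the control group, and its Atm, at 466 CPM, lay within the range of the others, 424 to 611. Its libraries had the lowest totals of the control group on both panels, 1060824 and 341400 counts.

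The other pathway genes, taken from lists of known targets and partners, did not share 1 direction in RT versus control. Of 30 listed p53 targets other than Cdkn1a and Fas, 7 were measured and tested, of which 1 was called higher, 3 lower and 3 neither, where 21.1% of tested genes were called lower. Their median log2 fold change was 0.06 beside -0.01 over all tested genes. Bax, which encodes a pore-forming protein of mitochondrial apoptosis, rose by 0.27 (adjusted p 0.00685), from 3063 ± 324 to 3682 ± 669 CPM. Gadd45a, a DNA damage-inducible gene, fell by 0.41 (adjusted p 0.0172), from 7407 ± 1928 to 5574 ± 1204 CPM. Ddb2 and Xpc, which encode damage recognition proteins of nucleotide excision repair, fell by 0.31 (adjusted p 0.00309) and 0.23 (adjusted p 0.0172). With factors from the reference genes, under which the median of all genes rises to 0.18, the same list gave 4 called higher and 0 lower, where 38.3% of tested genes were called higher and 7.80% lower. Gadd45a was then at -0.21 (adjusted p 0.127), Ddb2 at -0.15 (adjusted p 0.112) and Xpc at -0.08 (adjusted p 0.364), still below 0 and no longer called. All 4 genes of the set were called higher under both scalings, with values from 0.46 for Atm to 1.54 for Cdkn1a under the reference genes.

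Of 30 listed genes of ATM and ATR checkpoint signalling, 27 were tested in RT versus control, with 5 called higher, 4 lower and 18 neither. These are shares close to or below the 20.5% and 21.1% of all tested genes, and the median was 0.02. Fancd2, a protein of crosslink repair that is modified at damaged DNA, rose by 0.35 (adjusted p 0.00814). Brca1, which acts in homologous recombination, rose by 0.26 (adjusted p 0.016). Atr, the kinase that answers to single-stranded DNA, fell by 0.29 (adjusted p 0.000367). Rad9a, part of the checkpoint clamp, rose by 0.23 (adjusted p 0.0145). The kinases Chek1 and Chek2, which carry the signal onwards, were at 0.02 (adjusted p 0.868) and -0.06 (adjusted p 0.564). With the reference genes 12 were called higher and 0 lower, beside the 38.3% and 7.80% of tested genes. The 4 that were called lower stayed below 0 under that scaling, with Atr at -0.14 (adjusted p 0.0859), and lost their calls.

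Of 20 listed genes of the Fas death receptor pathway, 6 were tested in RT versus control, with 2 called higher, 2 lower and 2 neither, beside 20.5% and 21.1% of all tested genes, and a median of -0.05. Fasl, the ligand of Fas, rose by 0.87 (adjusted p 0.0298), from 16.7 ± 11 to 29.7 ± 13.4 CPM. Bcl2l1, an inhibitor of apoptosis, rose by 0.37 (adjusted p 1.93e-07), and its relative Bcl2 fell by 0.51 (adjusted p 0.00479). Casp8, the initiator caspase of the receptor, fell by 0.23 (adjusted p 0.000101). With the reference genes 3 were called higher and 1 lower, where 38.3% of tested genes were called higher and 7.80% lower. The 3 were Fasl at 1.04 (adjusted p 0.0102), Bcl2l1 at 0.52 (adjusted p 5.95e-08) and Ripk1 at 0.35 (adjusted p 0.00133). Bcl2 was called lower, at -0.36 (adjusted p 0.026), and Casp8 was at -0.03 (adjusted p 0.615). Ppp1r15a and Hipk2, the 2 tested genes among 9 regulators and relatives of p53, were at 0.17 (adjusted p 0.215) and 0.16 (adjusted p 0.183). Cdkn1b, which encodes the related inhibitor p27 and was the 1 tested of 7 other inhibitors of cyclin-dependent kinases, fell by 0.26 (adjusted p 0.0232). Among 3 tested proliferation genes of 23, Pcna fell by 0.28 (adjusted p 0.000711), while Mki67 was at -0.17 (adjusted p 0.0834) and Birc5 at 0.11 (adjusted p 0.462). With the reference genes Cdkn1b, at -0.10 (adjusted p 0.245), and Pcna, at -0.13 (adjusted p 0.218), were no longer called. Ppp1r15a, at 0.32 (adjusted p 0.0317), and Hipk2, at 0.34 (adjusted p 0.0163), were called higher under that scaling.

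**Figure D3:**
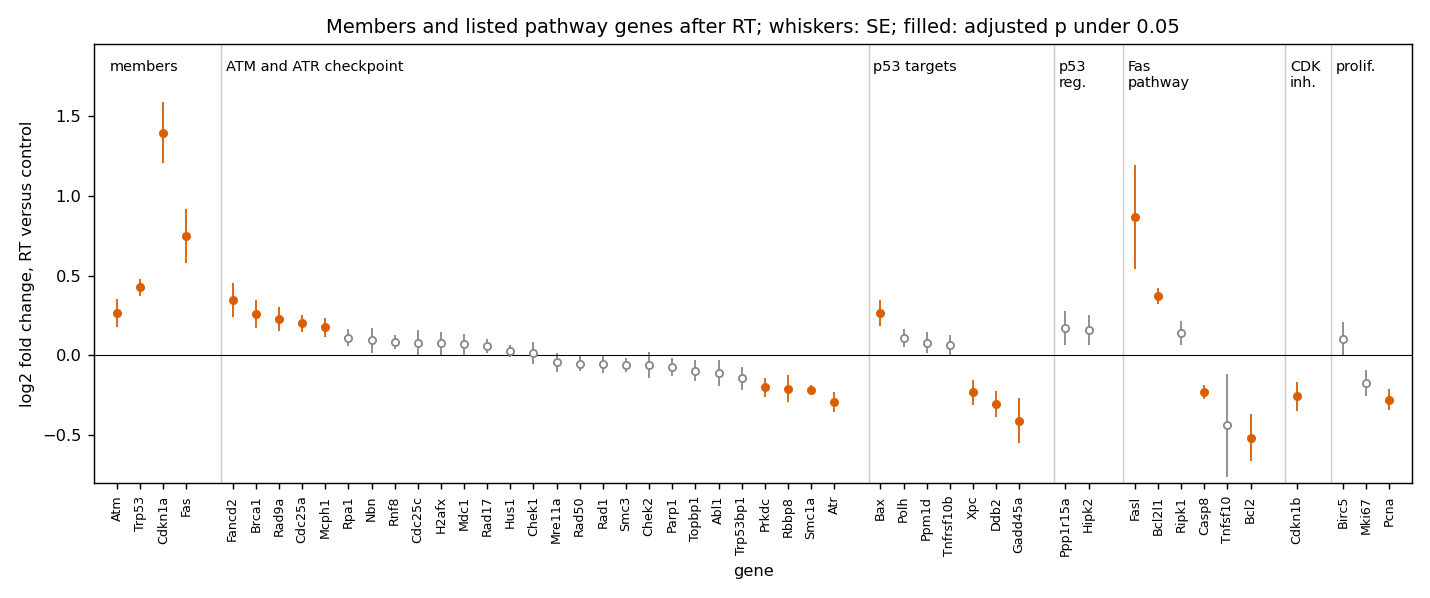
Log2 fold change in RT versus control (vertical axis) of the 4 genes and of the tested genes of each list (horizontal axis, by list), with SE as whiskers and filled points at an adjusted p under 0.05. Cdkn1a at 1.39 lies above every listed gene, and the p53 targets range from Bax at 0.27 to Gadd45a at -0.41.

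With BA alone, 0 of 7 p53 targets were called, and the checkpoint list had 1 called higher and 6 lower (12.5% and 14.5% over all tested genes), with a median of -0.05 beside 0.00 over all tested genes. Rbbp8, a DNA end-resection factor, fell by 0.45 and Cdc25c, a phosphatase of mitotic entry, fell by 0.36 (adjusted p 0.000127 and 0.000844). Atm stood at 0.03 in the same comparison. Fasl was the largest of the 3 called genes of the Fas list, at 1.19 (adjusted p 0.00737), while Fas itself was at 0.15. Ligand and receptor were thus both called higher with RT, and the ligand was called and the receptor not with BA. The difference between the 2 treatments was not tested.

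With BA+RT versus control, 1 of 7 p53 targets was called higher and 2 lower, 6 and 3 of 27 checkpoint genes, and 3 and 1 of 6 genes of the Fas list. The medians were 0.05, 0.10 and 0.03, beside 0.01 over all tested genes, of which 23.4% were called higher and 24.2% lower. Bax was at 0.19 (adjusted p 0.0427), Ddb2 at -0.42 (adjusted p 8.97e-05), Fancd2 at 0.43 (adjusted p 0.00119) and Fasl at 1.17 (adjusted p 0.00262). With BA+RT versus BA, 12 of 27 checkpoint genes were called higher and 5 lower, where 27.1% and 26.4% of tested genes were. They were led by Fancd2 at 0.79 (adjusted p 3.73e-07) and Brca1 at 0.58 (adjusted p 1.96e-06). With the reference genes 0 of the checkpoint list were called lower in that comparison. That scaling called 432 of all 1038 tested genes higher and 160 lower there. With TMM scaling the p53 targets were 2 higher and 2 lower in BA+RT versus BA, and Bcl2, in the Fas list, was at -0.62 (adjusted p 0.000683). With BA+RT versus RT, Gadd45a was the 1 p53 target called higher, at 0.46 (adjusted p 0.0261), and Tnfrsf10b, another death receptor, the 1 called lower, at -0.22 (adjusted p 0.0227). Casp8 was at -0.15 (adjusted p 0.0227) in that comparison, and Abl1, at 0.27 (adjusted p 0.0223), was the 1 checkpoint gene called of 27. In BA+RT versus RT 3.66% of tested genes were called higher and 7.13% lower. The interaction called 0 of 7 p53 targets, 0 of 6 genes of the Fas list, and 2 of 27 checkpoint genes, both higher, where 3.37% of tested genes were called higher and 4.91% lower.

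The 4 genes varied among tumours of a group in different ways. After group means were subtracted, Pearson's r over 36 mice was highest for Cdkn1a and Fas, at 0.470 (permutation p 0.00876, adjusted over 6 pairs 0.0526), with Spearman's rho at 0.267 (permutation p 0.130, adjusted 0.391). It was 0.455 without the 2 mice farthest from the median of Cdkn1a, and 0.310 without control mouse 6. Within groups r was 0.523 in control, -0.03 in BA, 0.473 in RT and 0.622 in BA+RT tumours, with 9 mice in each. Trp53 and Cdkn1a had an r of -0.03 (permutation p 0.877, adjusted 0.877) and a rho of 0.07 (permutation p 0.672, adjusted 0.672). Within groups their r ran from -0.61 in control to 0.545 in BA+RT tumours. The other 4 pairs had an r between -0.33 and 0.138, with adjusted permutation p values from 0.174. No pair passed the threshold after adjustment with TMM scaling. The call of Cdkn1a and Fas depended on the scaling, with an r of 0.474 (adjusted permutation p 0.0475) with DESeq2 size factors, 0.492 (0.0338) with total counts and 0.566 (0.0075) with reference genes. Atm and Trp53 passed with total counts, at 0.416 (adjusted permutation p 0.0449).

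**Figure D4:**
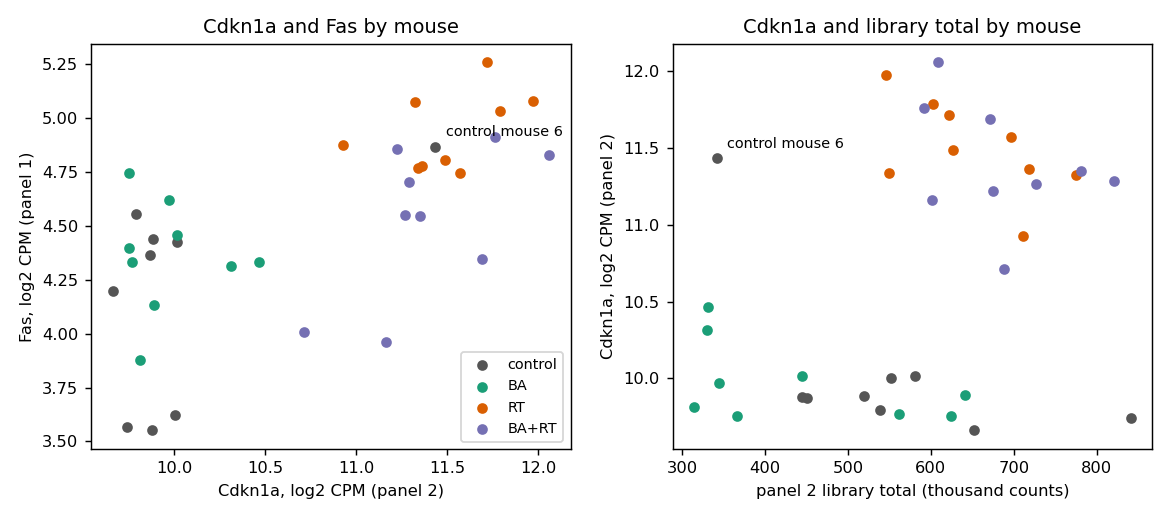
Left, Fas against Cdkn1a, both in log2 CPM, and right, Cdkn1a in log2 CPM against the panel 2 library total in counts (kilocounts on the axis), with 1 point per mouse coloured by treatment. Irradiated tumours lie to the right on the left plot and above on the right plot together with control mouse 6, whose panel 2 total of 341400 counts was the lowest of its group.

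Each gene had its own nearest genes among the 1037 other tested genes, ranked by Pearson's r of log2 CPM over 36 mice. These are descriptions, in which the points share treatment, library and depth. Atm was most like Il7 (0.863), a lymphocyte growth factor, Tapbpl (0.833) and H2-K1 (0.830), an MHC class I chain. After the group means were subtracted its nearest were Casp1 (0.822), Erap1 (0.815), a peptidase that trims MHC class I peptides, and H2-K1 (0.807). The tumour with the highest Atm in each group, mice 8, 16, 25 and 40, was also the one with the highest H2-K1, a gene named for its likeness in these same mice. Il7, Tapbpl, Casp1 and Erap1 were highest in mouse 27 in the RT group.

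Trp53 was most like Tnf (0.912), a macrophage and T cell cytokine, Myo7a (0.898) and Ptprj (0.896). Without the group means these were Tnf (0.709), Adgre1 (0.687), which encodes the macrophage antigen F4/80, and Myo7a (0.663). Cdkn1a was most like Gadd45g (0.940), Ccl7 (0.927), a monocyte attractant, and Mgmt (0.919), an enzyme that repairs alkylated guanine. Without the group means its nearest were Slc7a8 (0.868), Gadd45g (0.857) and Amhr2 (0.851). The tumour highest in Cdkn1a in each group, mice 6, 13, 23 and 45, was also the highest in Gadd45g. Counted from the lowest of 9, their panel 2 totals ranked 1 in the control group, 3 in BA, 1 in RT and 3 in BA+RT. Fas had weaker likenesses, led by Slc7a8 (0.695), Ceacam1 (0.676) and Cdkn1a (0.658), and without group means by Sele (0.557), Cd1d2 (0.505) and Il1a (0.504).

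Cell type markers also moved with treatment, and in whole tumours a change in the number of cells of a type and a change in RNA per cell cannot be told apart. The macrophage list had 3 of 6 tested markers called higher and 1 lower in RT versus control, where 20.5% and 21.1% of tested genes were, among them Adgre1 at 0.69 and Csf1r at -0.55. Its summed level ran from 3583 to 4585 CPM in control, 3912 to 4822 in BA, 3247 to 5048 in RT and 3556 to 4134 in BA+RT tumours. For the tumour cells, 2 of 8 listed epithelial markers were measured. In RT versus control Epcam was at -0.81 and Muc1 at 2.32, and their sum ran from 9515 to 14000 CPM in control, 7354 to 10717 in BA, 5921 to 8974 in RT and 4406 to 8276 in BA+RT tumours. The 8 T cell markers had 0 called higher and 2 lower in RT versus control, a share of lower calls near that of all tested genes. With BA 3 were called higher and 0 lower, where 12.5% of tested genes were called higher. With BA+RT, 0 were called higher and 3 lower against control, and 0 and 7 against BA tumours. Of all tested genes 24.2% and 26.4% were called lower in those 2 comparisons. The sum of the T cell markers ran from 32.6 to 183 CPM in control, 78.0 to 319 in BA, 11 to 155 in RT and 27 to 118 in BA+RT tumours. Of 6 fibroblast and pericyte markers 2 were called lower with RT, 5 with BA and 5 with BA+RT versus control, and 0 higher. Over all tested genes 21.1%, 14.5% and 24.2% were called lower in these comparisons, and 20.5%, 12.5% and 23.4% higher. The sum of the fibroblast and pericyte markers ran from 54438 to 99787 CPM in control, 38522 to 56089 in BA, 36606 to 86155 in RT and 40626 to 73006 in BA+RT tumours. Beside the same shares of all tested genes, 1 of 5 neutrophil markers was called higher and 0 lower with RT, 2 and 0 with BA, and 2 and 3 with BA+RT versus control. The sum of the neutrophil markers ran from 1761 to 4614 CPM in control, 1642 to 6573 in BA, 1383 to 4912 in RT and 1272 to 3775 in BA+RT tumours. Kdr, the 1 endothelial marker measured, was called lower with BA (-0.39) and BA+RT (-0.70) and was at -0.23 with RT. The 1 tested B cell marker and the 1 muscle marker, Mb, were not called against control. No measured marker of these lists was at 0 in all mice. Their part in the changes of the 4 genes was not tested.

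Library totals ranged from 959532 to 2616197 counts on panel 1 and from 314621 to 841046 on panel 2, and irradiated tumours were read more deeply. The panel 2 medians were 538121 counts in control, 365797 in BA, 626610 in RT and 675225 in BA+RT libraries. After group means were subtracted, log2 CPM and log2 library total had an r of -0.53 for Cdkn1a (permutation p 0.00092, adjusted over 4 relations 0.00368; rho -0.45, adjusted 0.0124). It was 0.534 for Trp53 (permutation p 0.00263, adjusted 0.00526; rho 0.489, adjusted 0.0124). It was 0.364 for Atm (permutation p 0.035, adjusted 0.0466; rho 0.382, adjusted 0.0444) and -0.13 for Fas (permutation p 0.474, adjusted 0.474; rho -0.03, adjusted 0.872). Without the 2 farthest totals r was -0.56, 0.458, 0.366 and 0.02 in the same order. Within groups r ran from -0.71 to -0.39 for Cdkn1a, from 0.05 to 0.792 for Trp53, from -0.05 to 0.828 for Atm and from -0.48 to 0.406 for Fas. With the library total as a covariate, a fit chosen after seeing the data, RT versus control gave 1.66 for Cdkn1a (adjusted p 1.73e-09), 0.37 for Trp53 (adjusted p 4.36e-07) and 0.83 for Fas (adjusted p 0.0012). Atm gave 0.14 (adjusted p 0.241) in that fit and was no longer called, whereas BA+RT versus control gave 0.41 (adjusted p 0.000838). In BA+RT versus BA the covariate lowered Trp53 from 0.37 to 0.23 (adjusted p 0.00293) and Atm from 0.49 to 0.34 (adjusted p 0.00937). It raised Cdkn1a from 1.45 to 1.97 (adjusted p 3.2e-09) and Fas from 0.20 to 0.29 (adjusted p 0.252) there.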

How the data were processed

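The RNA of each of 36 tumours was read on 2 targeted amplicon panels, which gave 72 libraries. The deposited table gives an integer count for every amplicon and mouse with no scaling applied, as its values show. A second table the authors deposited holds log2-scale regularized log values, and it was used for 1 alternative test. DESeq2, GRCm38 and GRCh38 are named in the submitters' processing notes, without a version for DESeq2. The sources used here do not give the aligner, the counter, whether reads or molecular barcodes were counted, or which kit is which panel. Positions are headed GRCh38 in the file but lie in the mouse genes of GRCm38. Starts were taken as 0-based, since 1170 of 1170 amplicons marked as lying in 1 exon then fell inside 1 exon, against 1145 as written.

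The tool was edgeR 4.0.16 in R 4.3.3. Its robust quasi-likelihood test was run two-sided on all 4 groups, separately for each panel, after TMM scaling and the default filter by group. Atm, on both panels, was reported from panel 1, where its total was larger. The Benjamini-Hochberg adjustment ran over the 1038 tested genes, and a gene was called at an adjusted p under 0.05. CPM values use the TMM library sizes, and log2 CPM a prior count of 2. The summed marker levels are the exception, with each marker scaled to the total counts of its own panel before adding. The SE was obtained from the log2 fold change and its F statistic. The steps were tested on simulated data. Genomic DNA control rows, 2.32e-05% of counts, were left out. Alternatives changed the scaling, the filter, the test, the groups in the fit and the panel, or left out 1 mouse, with DESeq2 1.42.0 and limma 3.58.1. Correlations subtracted group means and used 100000 two-sided permutations of mice within groups.

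Nearest genes were the 3 with the highest r, and up to 4 called genes of a list with the largest log2 fold change were named. The Chek1, Chek2 and other uncalled values are named with their values only. The members, lists and tests were chosen with earlier results of these data known. The labels give each mouse 1 tumour, so p values measure the spread between mice.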

Additional observations from a re-analysis of the deposited data

Results flagged for a closer look

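Within groups of 9 mice, the gap between the most extreme mouse and its neighbour was divided by the range of the group, and the ratio passed Dixon's critical value for 9 samples in 3 of the 20 groups examined. Chance alone passes this limit in about 1 in 20 groups. For Cdkn1a in the control group the value was 0.884, from mouse 6 at 2761 CPM with the next at 1033. For Atm on panel 2 in the control group it was 0.553, from mouse 8 at 1840 CPM with the next at 1423. On panel 1, from which Atm is reported, mouse 8 was at 611 CPM with the next at 566, and the ratio of 0.238 did not pass. For Trp53 in the BA+RT group it was 0.525, from mouse 42 at 2992 CPM with the next at 2611.

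Of the 46 tested genes on the pathway lists, 3 (6.52%) had a BA effect that was not the same with and without radiation, by the edgeR interaction test, below the 8.29% of all tested genes. On the log2 scale the difference was 0.51 for Rbbp8 (adjusted p 0.006), 0.45 for Cdc25c (adjusted p 0.0083) and 0.36 for Mki67 (adjusted p 0.0459).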

How the results depend on the processing

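The calls of Trp53 and Cdkn1a with radiation, and of Fas in RT versus control, kept their direction and their side of the threshold in every alternative run. The Atm difference between BA+RT and RT was called with DESeq2 size factors (0.27), total counts (0.26), the DESeq2 Wald test (0.27), limma on the regularized log values (0.18), the other panel (0.27) and the library total as a covariate added after seeing the data (0.26), with adjusted p values from 0.0288 to 0.0409. It was not called with the reference genes (0.17, adjusted p 0.271), with only those 2 groups (adjusted p 0.0955) or without a filter (adjusted p 0.0559). With 1 mouse left out it ran from 0.22 to 0.32. Atm in RT versus control was not called with only those 2 groups (0.25) or with the covariate (0.14), and ran from 0.18 to 0.30 with 1 mouse left out. Fas in BA+RT versus control was called with the reference genes (0.48) and ran from 0.27 to 0.42 with 1 mouse left out, with a call in 2 of 36 fits, without control mouse 6 or BA+RT mouse 39 (adjusted p 0.0455). The cause was not tested.

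Values that were not called changed sign with the reference genes for Atm (-0.00308) and Trp53 (-0.0802) in BA versus control, and with limma for the Cdkn1a interaction (-0.0313). With 1 mouse left out, Cdkn1a ran from -0.22 to 0.12 in BA versus control and from -0.23 to 0.13 in the interaction. The reference genes lowered the genes called in the interaction from 86 to 48. The correlation of Cdkn1a and Fas became significant with DESeq2 size factors (0.474), total counts (0.492) and reference genes (0.566), and that of Atm and Trp53 with total counts (0.416). That of Trp53 and Cdkn1a turned to 0.0116, 0.0649 and 0.339 with the same 3 scalings. With reference genes, those of Atm and Cdkn1a (0.0734), Atm and Fas (0.203) and Trp53 and Fas (0.135) turned positive.

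The split of called genes moved with the reference genes from 213 higher and 219 lower to 398 and 81 in RT versus control, from 243 and 251 to 319 and 175 in BA+RT versus control, from 281 and 274 to 432 and 160 in BA+RT versus BA, from 130 and 150 to 90 and 170 in BA versus control, from 38 and 74 to 13 and 107 in BA+RT versus RT, and from 35 and 51 to 12 and 36 in the interaction. No paired analysis was possible because mouse numbers are not shared between treatment groups, and a number links only the 2 libraries of 1 mouse. Depth limits Fas most.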
